A study of Danio rerio with 12 samples.

Results

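The genes described here are those whose transcript level set the homozygous psen2 S4Ter brains apart from both wild type and heterozygous brains. They were chosen by their measured values. A gene was taken when all 4 Hom values lay on one side of all 8 WT and Het values, when the WT and Het ranges overlapped, and when the Hom mean was at least 0.3 from the mean of the other 8 fish on the scale of log2(CPM + 0.5), where CPM is the count scaled to a common library size, here over counts outside the mitochondrial genome (Chr MT). The rule found 48 genes among the 17082 that passed the filter, out of 32057 genes in the table. This is 0.281% of the genes tested. Of the 48 genes, 41 were higher in Hom (0.24% of those tested) and 7 were lower (0.041%). Since these values did the choosing, they are given as a description and no test of Hom against Het or against WT is drawn from them. The filter kept a gene with CPM above 1.5 in at least 4 fish, so a gene silent in WT and Het could enter through its Hom values alone.

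Total RNA came from whole brains of 12 female zebrafish aged 6 months, 4 of each genotype, with 1 brain per library by the tissue label and the methods (the extraction text in the labels speaks of larvae in pools). WT fish (psen2+/+) carried no mutant allele, Het fish (psen2S4Ter/+) carried it on 1 chromosome, and Hom fish (psen2S4Ter/S4Ter) on both. All came from a mating of a pair of heterozygous F2 fish of a single mutant line in the Tübingen strain, and were raised in the same tank. The groups are therefore siblings from 1 family, and each is a sample of 4 of them.

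The gene psen2 encodes Presenilin 2, a catalytic subunit of gamma-secretase, the membrane protease that cleaves Notch receptors and the amyloid precursor protein. The S4Ter mutation is a premature stop codon close to the start of the coding sequence. The paper concludes that it is not a null allele and that it probably yields Psen2 proteins shortened at the N-terminus. A gene that differs in Hom but not in Het is the pattern usually called recessive, whereas a level halfway between WT and Hom in Het is called additive. Neither word is applied to the genes below, because the rule itself required WT and Het to overlap.

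The table adds the transcripts of both psen2 alleles, so it holds no check of the genotypes. The paper made that check in these libraries by counting each allele apart. It reports no wild type allele in Hom fish, no mutant allele in WT fish and about equal amounts of both in every Het fish. The level of psen2 was 22.7 ± 2.48 CPM in WT, 21.1 ± 2.22 in Het and 21.3 ± 2.20 in Hom (SD, n = 4), with all 3 ranges overlapping.

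Total counts ran from 11878943 to 17026801 per fish, and those outside Chr MT from 8834596 to 11938865. A floor of 3 counts equals 0.251 to 0.340 CPM at this depth, which covers counting error only. Chr MT took 37.3% to 41.5% of the counts of Hom fish, about as in Het (37.3% to 42.0%), while WT fish had 25.2% to 32.5%. Genes shorter than 500 bp took 8.42% to 11.4% of the counts outside Chr MT in Hom and 3.36% to 10.1% in WT. In Het they took 9.12% to 12.6% in 3 fish and 22.1% in Het 84, which stood apart from the rest. Exact two-sided permutation tests of 15 library and marker measures in 2 contrasts gave no adjusted p under 0.05. The smallest p that 4 fish against 4 allow is 0.0286, and the smallest adjusted p was 0.214. Over 30 tests, an adjusted p under 0.05 would need many of them at that smallest p. The lack of any therefore does not show that the measures were alike. Of these measures, the summed level of 6 endothelial and mural cell markers had Hom fish (166 to 188 CPM) above all Het fish (147 to 163 CPM), with p at 0.0286, while WT fish reached from 126 to 170 CPM. For Hom against WT, the share on Chr MT and the neuron and radial glia sums had the same p. The 3 neuron markers found, of 12 listed, summed to 2189 to 2439 CPM in Hom and 2493 to 2580 in WT. Their log2 changes for Hom minus WT in edgeR ran from -0.51 to 0.55, so the 3 did not move in the same direction. The 4 radial glia markers summed to 471 to 871 CPM in Hom and 339 to 467 in WT.

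Under the same rule, 132 genes were set apart in Het alone (0.773% of those tested), 41 of them higher (0.24%) and 91 lower (0.533%). For WT alone the number was 2287 (13.4%), with 1397 higher and 890 lower. Without the conditions on overlap and size, all 4 fish lay on one side of the other 8 for 68 genes in Hom (0.398%), 246 in Het (1.44%) and 2541 in WT (14.9%). In total, Hom was the genotype with the fewest genes of its own. How many genes a random order of the 12 fish would set apart was not counted. The Hom number is therefore not read as an excess over chance, and single genes among the 48 may have been set apart by chance. The heat map of the 48 genes shows the pattern that the rule selected, gene by gene and fish by fish.

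**Figure D1:**
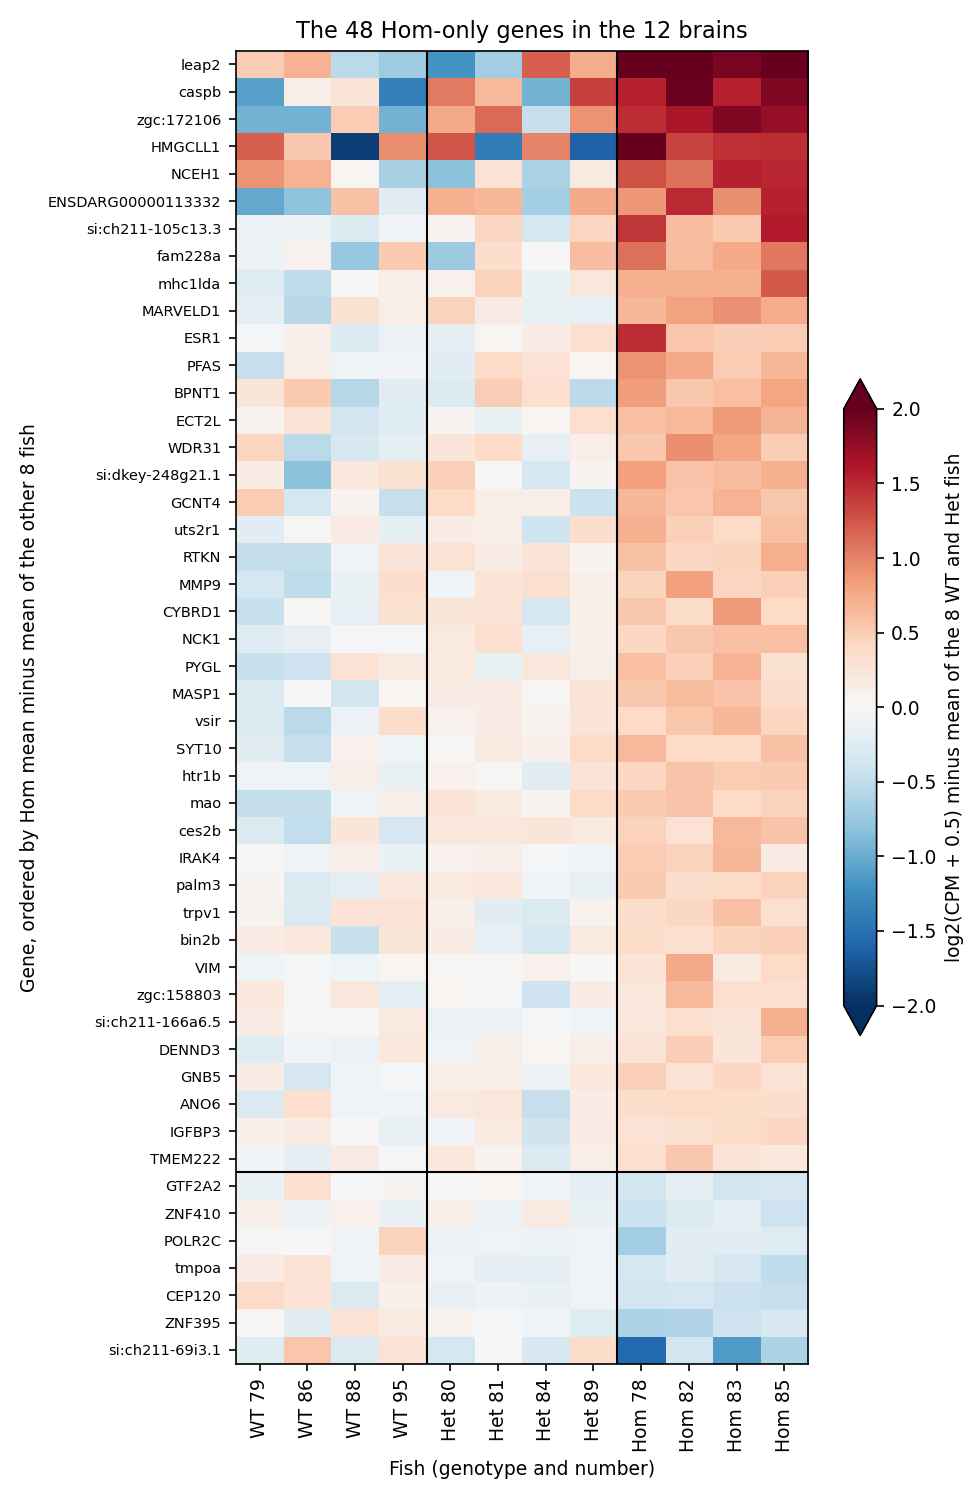
Each row is 1 of the 48 genes and each column 1 of the 12 fish. Colour gives log2(CPM + 0.5) minus the mean of the 8 WT and Het fish, with values beyond 2 in size drawn at the end of the scale. The 41 genes above the horizontal line were higher in every Hom fish than in every other fish, and the 7 below it were lower.

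The split into 41 higher and 7 lower genes depended on how the libraries were scaled. Relative to counts outside Chr MT, the median of all 17082 genes was 0.06 higher in Hom than in the other 8 fish on the log2 scale. With CPM over all counts it was -0.05, with TMM library sizes 0.01 and with DESeq2 size factors 0.00. The filter was applied anew under each, so these medians are over 15956, 17042 and 17051 genes. The rule then found 19 higher and 7 lower genes with CPM over all counts, 26 higher and 21 lower with TMM, and 24 higher and 25 lower with DESeq2 size factors. Of the 48 genes, 14, 31 and 29 were still chosen under these 3 scalings. Of the 34 lost with CPM over all counts, 27 had Hom fish overlapping the others. Some of the rest met the other conditions and fell below the filter. All 48 kept the direction of their difference under each of the 3. The rule had chosen genes with a difference of at least 0.3, so this too is a description only.

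A total of 10 genes were chosen under all 4 scalings. They were leap2, caspb, ENSDARG00000113332, si:ch211-105c13.3, ESR1, si:dkey-248g21.1 and htr1b, which were higher in Hom, and ZNF395, CEP120 and ZNF410, which were lower. Leaving out Het 84 also moved the split, to 40 higher and 20 lower genes, and 36 of the 48 genes were still chosen. The counts of chosen genes by scaling are shown as bars.

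**Figure D2:**
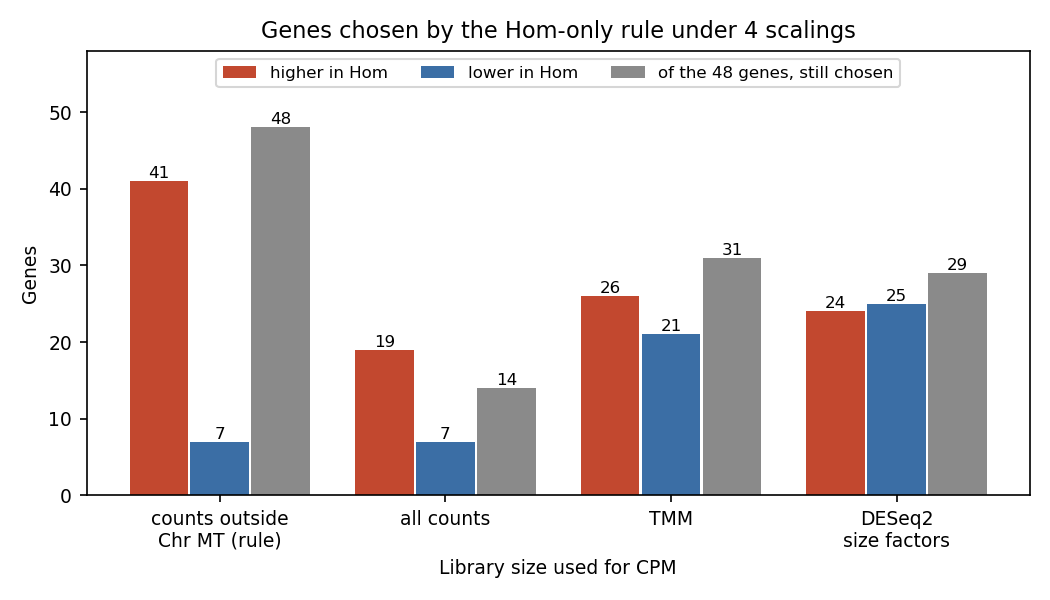
Bars give the number of genes chosen by the rule as higher (red) or lower (blue) in Hom, and the number of the 48 genes still chosen (grey), with library size taken as counts outside Chr MT, all counts, TMM sizes or DESeq2 size factors. The split went from 41 against 7 under the first to 24 against 25 under the last.

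The margin between Hom and the nearest other fish was narrow for most of the 48 genes. Its median was 0.08 on the log2 scale, it was under 0.1 for 34 genes, and it was above 0.3 for 2, leap2 and zgc:172106. The difference between the Hom mean and the mean of the other 8 fish had a median of 0.54 for the 41 higher genes and -0.35 for the 7 lower ones. It exceeded 1 in size for 7 genes. The genes just inside the limit of 0.3 were GTF2A2 (-0.32), ZNF410 (-0.32) and TMEM222 (0.34), and those just outside it were EIF3K (-0.29), PDE4D (0.28) and CDC40 (-0.28).

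Among the 41 higher genes, 8 are known for a role in immunity or inflammation. The grouping by role was made after the values had been seen. How many of all genes tested have each role was not counted, so the numbers per role are descriptions only. Differences of these 8 genes ran from 0.40 to 2.53, with a median of 0.53. Of the 8, leap2 and caspb were chosen under all 4 scalings. In the sentences below, values are in the order of fish 78, 82, 83 and 85 for Hom, 80, 81, 84 and 89 for Het, and 79, 86, 88 and 95 for WT.

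The largest difference of all belonged to leap2 (chromosome 7, 51752239 to 51757085 of GRCz11), which encodes an antimicrobial peptide named for its expression in liver, and which in mammals also blocks the ghrelin receptor. Its level was 10.6, 6.81, 3.75 and 5.05 CPM in Hom, 0, 0.202, 2.13 and 1.41 in Het and 1.13, 1.34, 0.289 and 0.196 in WT. The Hom mean was 7.82 times the mean of the other 8 fish, and the log2 difference was 2.53. The Het and WT fish covered the same low range, and 1 of them, Het 80, had no count. Hom 78 was highest and Hom 83 lowest of the Hom fish, at 97 and 35 counts.

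The gene caspb encodes caspase b, an inflammatory caspase of zebrafish. Its level was 4.03, 5.62, 4.07 and 5.15 CPM in Hom, 2.68, 1.92, 0.304 and 3.52 in Het and 0.226, 1.17, 1.35 and 0.0978 in WT. The log2 difference was 1.74. Here the Het fish did not form one group, since Het 84 lay among the WT fish and the other 3 lay between WT and Hom. Its position close to psen2 is taken up with 3 other genes below.

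The gene mhc1lda encodes a class I major histocompatibility molecule of the L lineage, a family whose classical members present peptides. Its level was 2.07, 2.05, 2.04 and 3.11 CPM in Hom, 1.13, 1.62, 0.911 and 1.31 in Het and 0.792, 0.586, 1.06 and 1.17 in WT, a log2 difference of 0.85. Hom 85 stood well above the other 3 Hom fish, which were nearly equal. Genes of this family and caspases have close copies, and counts of fragments with a unique best position can be divided among copies, which was not tested.

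The other 5 genes differed less. MASP1, a protease of the lectin pathway of complement, lay at 6.2, 6.59, 6.32 and 5.34 CPM in Hom and at 3.08 to 5.02 in the other 8 fish. For vsir, an immune checkpoint receptor known as VISTA in mammals, the values were 11.1, 12.4, 13.5 and 11.5 CPM in Hom and 5.61 to 10.9 in the rest. Both genes separated Hom from the others by a small step, with differences of 0.52 and 0.51. For IRAK4, the kinase next to Toll-like and interleukin-1 receptors, Hom fish lay at 3.48, 3.35, 3.97 and 2.62 CPM and the others at 2.05 to 2.6. MMP9, a gelatinase released by leukocytes, lay at 3.7, 4.97, 3.64 and 3.79 CPM in Hom and at 1.68 to 3.42 in the others. In MMP9 a single fish, Hom 82, was high and the other 3 were close to the upper end of the other genotypes. For bin2b, whose mammalian relative is a membrane-shaping protein of blood cells, Hom values were 7.51, 7.24, 7.93 and 8.16 CPM and the rest 4.04 to 6.85.

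In whole brains, more cells of a type and more RNA per cell cannot be told apart. The 14 marker genes of microglia and macrophages summed to 803 to 997 CPM in Hom brains, 778 to 1012 CPM in Het brains and 644 to 937 CPM in WT brains, and none of the 14 was at 0. The Hom and Het ranges of that sum overlapped almost wholly, and the part of these cells in the values above was not tested.

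Another 6 of the higher genes encode receptors, a G-protein subunit or an enzyme of monoamine breakdown, with differences from 0.37 to 0.76. Of these 6, 2 were chosen under all 4 scalings. ESR1 (chromosome 20, 26359756 to 26383375) encodes estrogen receptor alpha, and all the fish were female. Its level was 13.2, 6.7, 6.43 and 6.51 CPM in Hom, 3.81, 4.55, 4.96 and 5.63 in Het and 4.3, 4.77, 3.56 and 4.01 in WT, and the log2 difference was 0.76. Hom 78 was far above the other 3 Hom fish, which lay close together and not far above the highest Het fish.

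The gene htr1b encodes the serotonin receptor 1B, which in mammals lowers transmitter release from nerve terminals. Its level was 10.4, 11.7, 11.3 and 11.4 CPM in Hom, 8.24, 7.89, 6.58 and 9.44 in Het and 7.36, 7.29, 8.56 and 6.94 in WT, a log2 difference of 0.50. The Hom fish were tightly grouped, at 11.2 ± 0.525 CPM (SD, n = 4), against 8.04 ± 1.18 in Het and 7.54 ± 0.706 in WT.

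The gene mao encodes monoamine oxidase, which degrades serotonin, dopamine and noradrenaline. It lay at 111, 114, 102 and 106 CPM in Hom, 92.4, 87.5, 80.1 and 101 in Het and 54.9, 55.2, 72.5 and 83.3 in WT. The Het mean of mao was 63.7% of the way from WT to Hom, farther than for any other of the 48 genes, and Het 89 was within 0.0037 of the lowest Hom fish on the log2 scale.

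The uts2r1 gene encodes a receptor for urotensin 2, a peptide hormone, and lay at 13.5, 11.4, 10.7 and 12.4 CPM in Hom against 5.97 to 10.3 in the other fish. For trpv1, a cation channel that in mammals responds to heat and capsaicin, the values were 3.26, 3.46, 3.97 and 3.21 CPM in Hom and 1.92 to 3.13 in the others. GNB5 encodes a G-protein beta subunit found mainly in neurons and retina, and lay at 16.8, 14.8, 16.1 and 14.8 CPM in Hom against 9.38 to 13.9. The differences of these 3 genes were 0.55, 0.42 and 0.37. The 15 retina and pineal markers found summed to 22.3 to 384 CPM in Hom, 20.3 to 173 in Het and 5.00 to 215 in WT, so the sum varied widely within each genotype and the ranges overlapped. Its mean was higher in Hom, at 217 CPM against 72.9 in Het and 89.5 in WT, with exact permutation p of 0.114 and 0.143. All 12 of these markers that passed the filter had a positive logFC for Hom minus Het (median 1.73), 4 of them at an unadjusted p under 0.05 and none at an FDR under 0.05 in edgeR. The part of such tissue in the values of the Hom-high genes was not tested.

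Enzymes of metabolism made up 8 of the higher genes, with differences from 0.49 to 1.66. None of the 8 was chosen under all 4 scalings. HMGCLL1 encodes a relative of the lyase that makes ketone bodies. Its level was 8.92, 4.22, 4.61 and 4.66 CPM in Hom, 3.91, 0.202, 3.14 and 0.10 in Het and 3.74, 2.18, 0 and 3.03 in WT. In WT and Het it was either near 0, in WT 88, Het 81 and Het 89, or above 2 CPM, in the other 5 fish. The difference of 1.66 thus mixes a step between fish of the same genotype with the step to Hom.

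NCEH1 encodes a neutral cholesterol ester hydrolase, and lay at 2.5, 2.16, 3.11 and 3.01 CPM in Hom, 0.206, 1.01, 0.304 and 0.904 in Het and 1.81, 1.51, 0.77 and 0.293 in WT. The Het mean was below the WT mean, and the log2 difference of Hom from the 8 others was 1.35. PFAS, an enzyme of purine synthesis, lay at 6.64, 5.95, 4.93 and 5.54 CPM in Hom and at 2.26 to 4.45 in the other fish, a difference of 0.71. BPNT1, a phosphatase of sulfur metabolism, lay at 9.47, 7.67, 8.04 and 9.13 CPM in Hom and 3.27 to 7.54 in the rest, a difference of 0.69. In both genes the lowest Hom fish lay close above the highest of the others.

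The other 4 enzymes had differences of 0.61 for GCNT4, a glycosyltransferase that branches O-glycans, 0.54 for CYBRD1, a ferric reductase, 0.52 for PYGL, a glycogen phosphorylase, and 0.49 for ces2b, a carboxylesterase. Hom values were 2.43 to 2.79 CPM for GCNT4, 2.16 to 3.22 for CYBRD1 and 2.82 to 3.86 for PYGL. They were higher for ces2b, at 32.6, 28.9, 37.2 and 35.2 CPM against 27.7, 27.8, 28 and 26.7 in Het and 19.1, 16.6, 28.1 and 18.7 in WT. In ces2b, 3 of the WT fish lay below every Het fish and WT 88 lay above them.

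A further 8 higher genes encode parts of the cytoskeleton, membrane proteins, a binding protein or signalling adaptors. None of the 8 was chosen under all 4 scalings, and VIM, DENND3, ANO6 and IGFBP3 only under that of the rule. The same held outside this group for MMP9, IRAK4, mao, BPNT1, PYGL, ces2b, si:ch211-166a6.5, TMEM222 and zgc:158803. The most abundant of all 48 genes was VIM, which encodes vimentin, the intermediate filament of radial glia and of many mesenchymal cells. Its level was 183, 257, 172 and 200.2 CPM in Hom, 155, 155, 161 and 153 in Het and 143, 149, 143 and 157 in WT. The 8 WT and Het fish were nearly level, and Hom 82 was the highest. The 4 radial glia markers found, of 9 listed, summed to 471 to 871 CPM in Hom, 576 to 988 in Het and 339 to 467 in WT, with none at 0. The mean of that sum was 795 CPM in Het, 712 in Hom and 399 in WT. Endothelial and mural cells can also contain vimentin. Their 6 markers summed to 166 to 188 CPM in Hom, 147 to 163 in Het and 126 to 170 in WT. The part of either kind of cell in VIM was not tested.

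SYT10 encodes a synaptotagmin, a calcium sensor of vesicle release, and lay at 42.5, 35.7, 35.6 and 40.8 CPM in Hom, 27.3, 30.6, 29.1 and 35.2 in Het and 23, 19.4, 28.8 and 25.4 in WT. NCK1, an adaptor that links receptor tyrosine kinases to actin, lay at 16.8, 18.2, 18.9 and 19.1 CPM in Hom, 14.2, 15.6, 11 and 13.4 in Het and 10.3, 11.1, 12.2 and 12.2 in WT. In both genes Het lay above WT on average, at about the midpoint for SYT10 and at 34.8% of the way to Hom for NCK1. RTKN lay at 4.57, 4.0, 4.07 and 5.05 CPM in Hom and 1.92 to 3.6 in the other fish.

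The other 4 of this group differed by 0.43 (palm3, a paralemmin), 0.37 (DENND3, an exchange factor for Rab GTPases), 0.36 (ANO6, a lipid scramblase) and 0.34 (IGFBP3, a binding protein of insulin-like growth factors). Hom values ran over 3.03 to 3.48 CPM for palm3, 9.86 to 12 for DENND3 and 23.2 to 25.2 for IGFBP3, and those of the other 8 fish over 1.76 to 2.74, 6.9 to 9.68 and 14.2 to 21.8. The 4 Hom values of ANO6 lay close together, at 8.38, 8.54, 8.47 and 8.36 CPM, but WT 86 reached 8.29 CPM.

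Of the 11 higher genes without a role used above, si:ch211-105c13.3 had the largest difference outside the neighbourhood of psen2. Its level was 9.9, 5.4, 5.04 and 11.1 CPM in Hom, 3.5, 4.65, 2.53 and 4.72 in Het and 3.06, 3.1, 2.69 and 3.23 in WT. Hom 78 and Hom 85 were high, and the other pair of Hom fish lay just above Het 81 and Het 89. It was the only member among the genes called DE for Hom against WT, by criteria given below. For si:dkey-248g21.1 the values were 5.0, 4.11, 4.29 and 4.57 CPM in Hom and 1.26 to 3.81 in the others. This gene overlaps another gene model on its own strand, as does ECT2L, so part of their counts may belong to that model.

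ECT2L lay at 2.18, 2.27, 2.68 and 2.33 CPM in Hom and 0.866 to 1.71 in the others. MARVELD1, a membrane protein with a MARVEL domain, lay at 1.63, 1.84, 2.04 and 1.75 and 0.419 to 1.34 CPM. These 2 had among the wider margins of the 48 genes, but at levels of few counts. For WDR31 the Hom values were 1.63, 2.27, 2.04 and 1.55 CPM and for fam228a 2.72, 1.84, 2.04 and 2.62 CPM, with 0.503 to 1.47 and 0.385 to 1.81 in the other fish. The remaining genes with the smallest differences were si:ch211-166a6.5 at 15.8 to 22.3 CPM in Hom against 12.4 to 15.3 in the others, and TMEM222 at 6.41 to 8.11 against 4.35 to 6.38 CPM.

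The 7 lower genes included 4 with a role in transcription. POLR2C encodes a core subunit of RNA polymerase II. Its level was 14.8, 20.8, 20.5 and 19.9 CPM in Hom, 22.1, 22.8, 22.1 and 22.6 in Het and 24.3, 23.9, 22.5 and 33.2 in WT, a log2 difference of -0.34. GTF2A2 encodes the small subunit of the general factor TFIIA, and lay at 14.4, 16.1, 14.3 and 14.6 CPM in Hom against 16.2 to 23.5 in the others. For POLR2C the Hom mean was 21.5% below the mean of the other 8 fish, and for GTF2A2 20.6% below.

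ZNF395 and ZNF410 encode zinc-finger proteins, and in mammals ZNF410 acts on the gene of a chromatin remodeller subunit. ZNF395 lay at 45.7, 46.6, 53.2 and 56.8 CPM in Hom, 74.6, 69.8, 66.9 and 59.8 in Het and 72.2, 60.4, 86.6 and 80.4 in WT, a difference of -0.49. ZNF410 lay at 13.4, 14.9, 16 and 13.6 CPM in Hom, 19.6, 16.8, 20.8 and 16.5 in Het and 19.6, 17, 19.3 and 16.6 in WT, a difference of -0.32. Both genes lie on chromosome 20, and their Het and WT fish were mixed throughout.

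CEP120, a protein needed to build centrioles, lay at 5.88, 5.95, 5.57 and 5.44 CPM in Hom, 6.9, 7.18, 6.99 and 7.23 in Het and 10.2, 9.46, 6.25 and 8.31 in WT. The Het fish were tightly grouped between Hom and 3 of the WT fish, and WT 88 lay just above Hom. The gene tmpoa encodes thymopoietin a, a protein of the inner nuclear membrane and nucleus, and lay at 6.42, 7.03, 6.54 and 5.73 CPM in Hom and 7.19 to 10.3 in the others. The largest drop was that of si:ch211-69i3.1, at 0.435, 1.62, 0.75 and 1.26 CPM in Hom, 1.65, 2.23, 1.72 and 3.01 in Het and 1.81, 3.52, 1.73 and 2.84 in WT. Its difference of -0.92 rests on few counts, the lowest being 4 in Hom 78, and Hom 82 came close to Het 80.

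**Figure D3:**
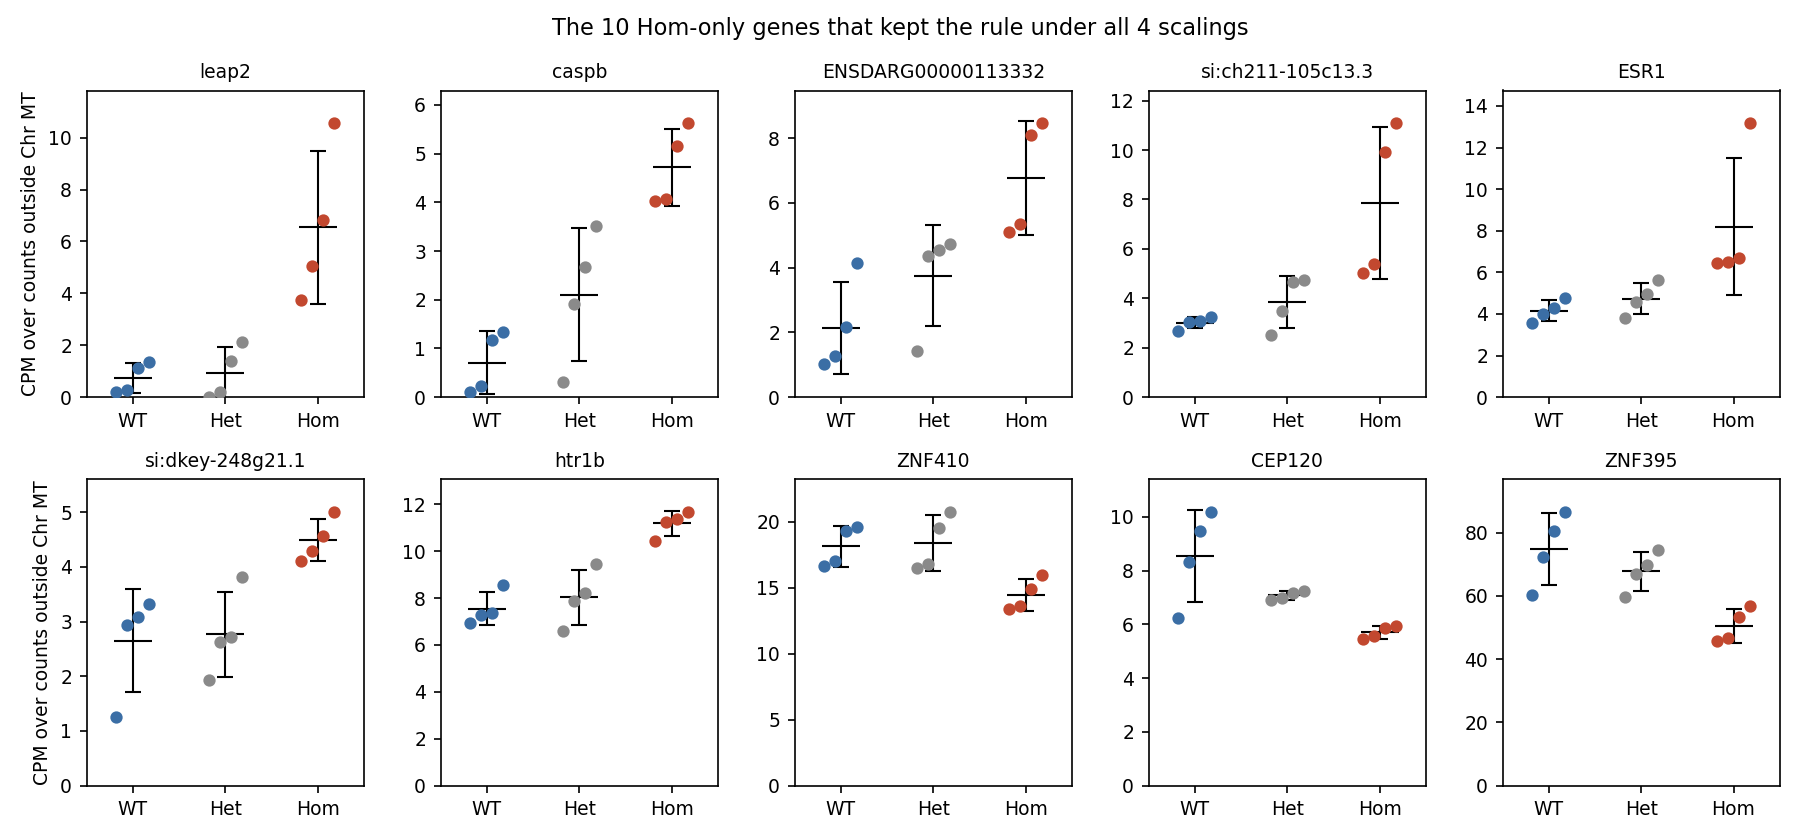
Points give CPM over counts outside Chr MT in each fish for the 10 genes chosen under all 4 scalings, with the mean and SD of the 4 fish of each genotype as a line and bars. Hom 78 stands far above the other Hom fish for ESR1 and leap2, and Het 84 lies among the WT fish for caspb and ENSDARG00000113332.

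On chromosome 1, psen2 lies at 51048975 to 51062405. Of the 290 genes tested within 10 Mb of it, 4 met the rule (1.38%), against 0.262% of the genes tested elsewhere. All 4 lay further along the chromosome than psen2, where 158 of the 290 genes are. They were zgc:158803 (55169130 to 55183088), zgc:172106 (55293424 to 55299173), caspb (58050905 to 58064738) and ENSDARG00000113332 (58870054 to 58880613), the last without a symbol. No other member is on chromosome 1. The share near psen2 rests on 1 fish and on the scaling. In zgc:172106, caspb and ENSDARG00000113332 the WT and Het ranges overlapped, as the rule required, only through Het 84. The lowest of the other Het fish were at 1.13, 1.92 and 4.35 CPM, and the highest WT fish at 0.866, 1.35 and 4.14 CPM. The gene zgc:158803 was chosen under none of the 3 other scalings.

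The level of zgc:172106 was 2.18, 2.49, 3.0 and 2.72 CPM in Hom, 1.13, 1.62, 0.203 and 1.31 in Het and 0, 0, 0.866 and 0 in WT. That of ENSDARG00000113332 was 5.11, 8.11, 5.36 and 8.45 CPM in Hom, 4.53, 4.35, 1.42 and 4.72 in Het and 1.02, 1.26, 4.14 and 2.15 in WT. In these 2 genes and in caspb the levels followed a shared order, with WT lowest, 3 Het fish in between and Hom highest. Het 84 was an exception each time and lay with the WT fish. WT 88 was the highest of the WT fish in each, but for caspb WT 86 was nearly as high (1.17 against 1.35 CPM). For ENSDARG00000113332, WT 88 was close to the Het fish. The Het means of the 3 genes were 46.2% to 51.8% of the way from WT to Hom. The gene zgc:158803 differed from them, at 53.1, 71.2, 56.7 and 57.3 CPM in Hom, 46.3, 44.1, 34 and 50.03 in Het and 52.5, 46.2, 52.9 and 39.6 in WT, with Het below WT on average.

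Over the 12 fish, deviations from the genotype means correlated in each of the 6 pairs of these 4 genes, with Pearson r from 0.56 to 0.87. The points share libraries and scaling. Without Het 84 and WT 88, 2 fish picked after their values were seen, r ran from -0.17 to 0.41 over the other 10, with 0.41 for zgc:158803 and caspb. Leaving out fish that deviate in the same way lowers r by construction, so the second range is a description only. Over all 12 fish, r was as high with members on other chromosomes. The 4 genes correlated with htr1b on chromosome 17 at r of 0.79 to 0.86, and caspb with uts2r1 on chromosome 12 at 0.88. Among pairs of tested genes at large, 9.14% had r above 0.6. Among all 158 tested genes on that side of psen2, 31.0% differed by at least 0.3 in either direction between Hom and the other 8 fish, compared with 25.2% of the 131 on the other side and 19.3% of all genes tested. Their median difference was -0.04, so they were not higher as a whole. Siblings of 1 family that share a psen2 genotype also share more of the chromosome around it than other siblings do, so the allele and its linked region cannot be told apart in this design.

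**Figure D4:**
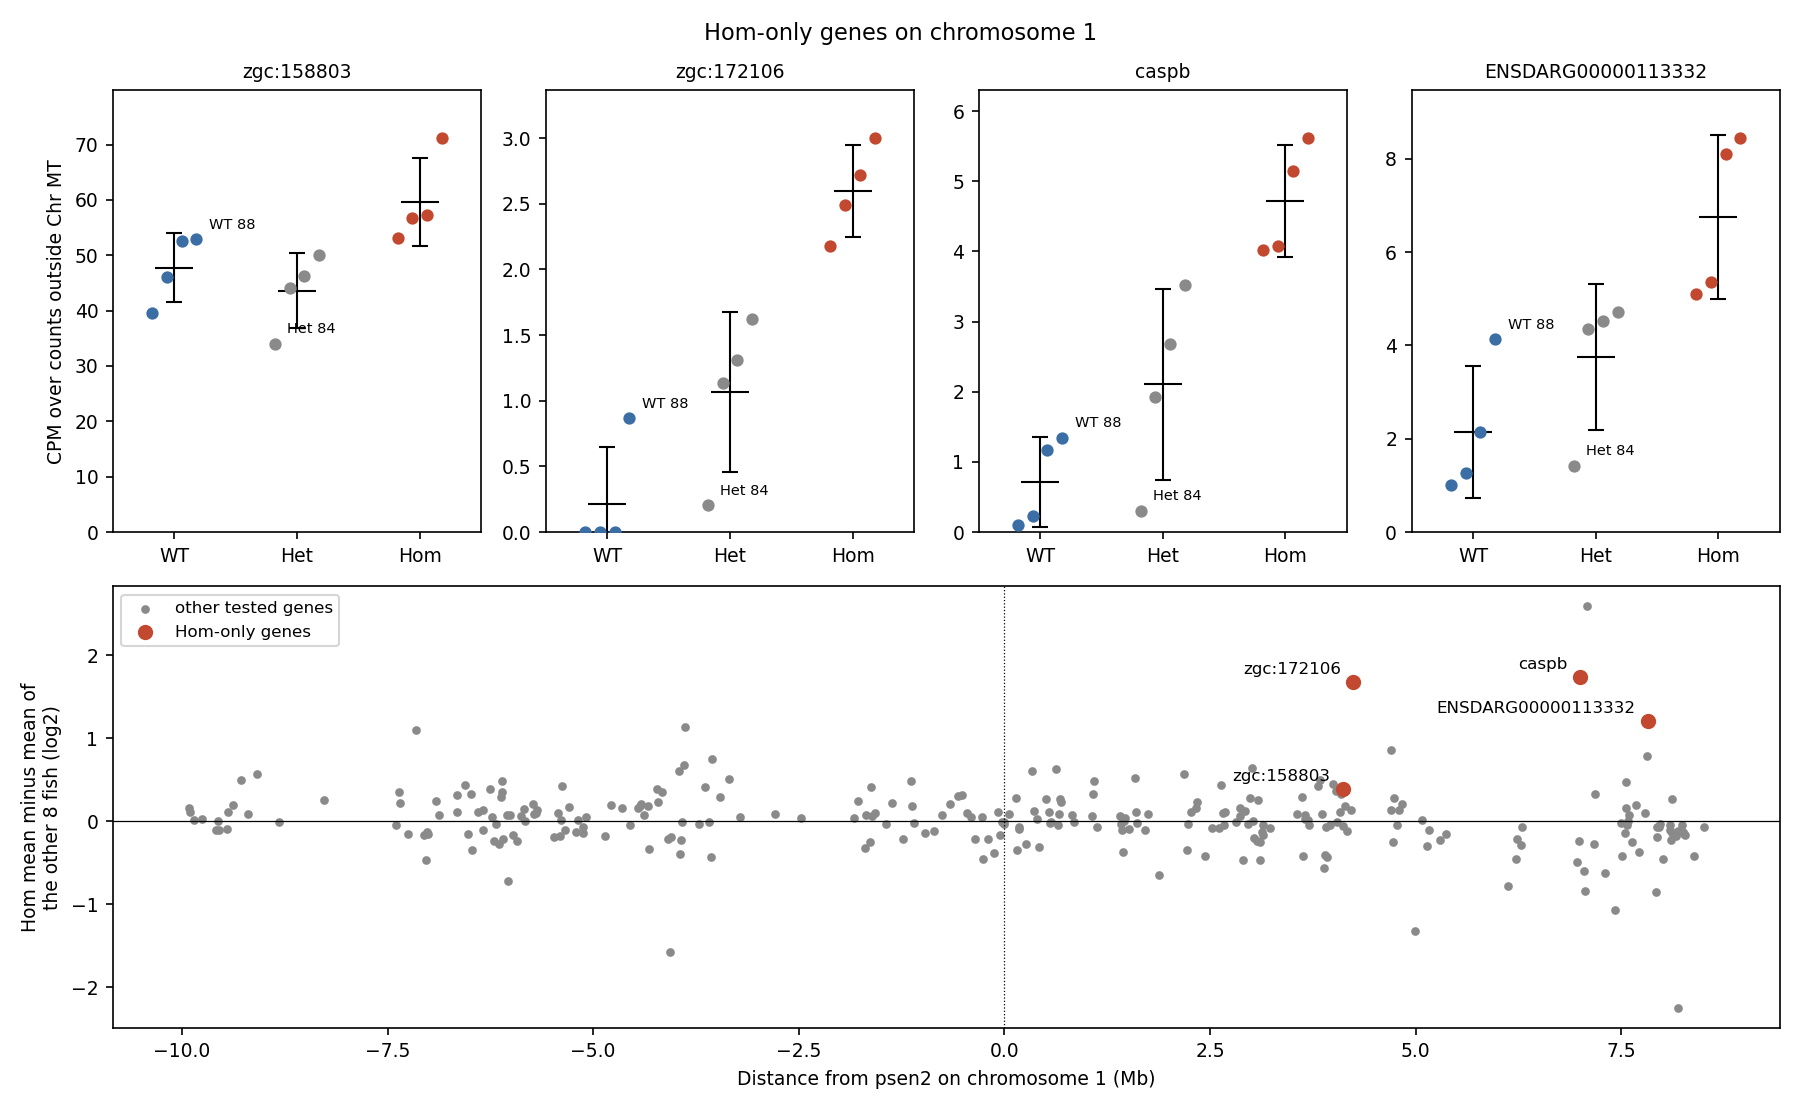
The upper panels give CPM in each fish for the 4 genes on chromosome 1 that met the rule, with the mean and SD of each genotype and with WT 88 and Het 84 marked. The lower panel gives, for the tested genes within 10 Mb of psen2, the Hom mean minus the mean of the other 8 fish on the log2 scale against the distance from psen2 in Mb. All 4 genes (red) lie to the right of psen2. The label Hom-only in the figures means that a gene met the rule, not that Het equalled WT.

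Elsewhere, members lay on 20 of the 25 nuclear chromosomes. Chromosome 20 held 7 of them, 1.01% of its 693 tested genes. Among these, fam228a and PFAS lie 89.8 kb apart with 2 tested genes between them, and ESR1 lies 886 kb beyond PFAS. Their deviations correlated weakly to moderately, with r of 0.39 for fam228a and PFAS, 0.44 for ESR1 and PFAS, and 0.49 for fam228a and ESR1. On chromosome 2, NCK1 and NCEH1 lie 0.15 Mb apart with 4 tested genes between them and did not vary together (r of -0.03). The tested genes next to the 48 members, 96 in number, held no other member. Their median difference in size was 0.15, against 0.14 for all genes tested.

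Across all pairs of the 48 genes the median r of deviations from the genotype means over the 12 fish was 0.05, and it was 0.09 over pairs of tested genes. Within genotypes, the 48 genes did not vary together more than pairs of genes at large. The gene most like leap2 was ESR1 (r of 0.68), followed by ECT2L (0.46) and CEP120 (0.43). For si:ch211-69i3.1 they were DENND3 (0.73), VIM (0.61) and POLR2C (0.56). With leap2 and ESR1 the highest fish was Hom 78 in both.

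The 48 genes were less abundant than the genes tested as a whole. Their median CPM was 5.30, against 17.3 for all genes tested, and 16 of them (33.3%) had a mean under 3 CPM, against 13% of those tested. In 13 genes at least 1 fish had fewer than 10 counts, and in 3 at least 1 fish had none. Exonic length had a median of 2449.5 bp, against 2592 bp. The rule required every Hom fish to lie beyond the others. Among them, the farthest from the other 8 was Hom 78 in 15 genes, Hom 83 in 12, Hom 85 in 11 and Hom 82 in 10. The other fish closest to Hom was a Het in 30 genes and a WT in 18, and Het 89 alone was the closest in 15.

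The Het mean lay between the WT and Hom means in 40 of the 48 genes, and for 32.1% of all genes tested. The rule bears on this share and on the position of Het, so both are descriptions only. Hom had to be the extreme genotype, and the WT and Het ranges had to overlap. On average Het was nearer to WT than to Hom, with a median position of 22.1% of the way and a range from -51.9% (trpv1) to 63.7% (mao). Of the 41 higher genes, 34 had a Het mean above that of WT, and of the 7 lower genes 6 had one below. Only 6 genes had a Het mean beyond the midpoint.

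**Figure D5:**
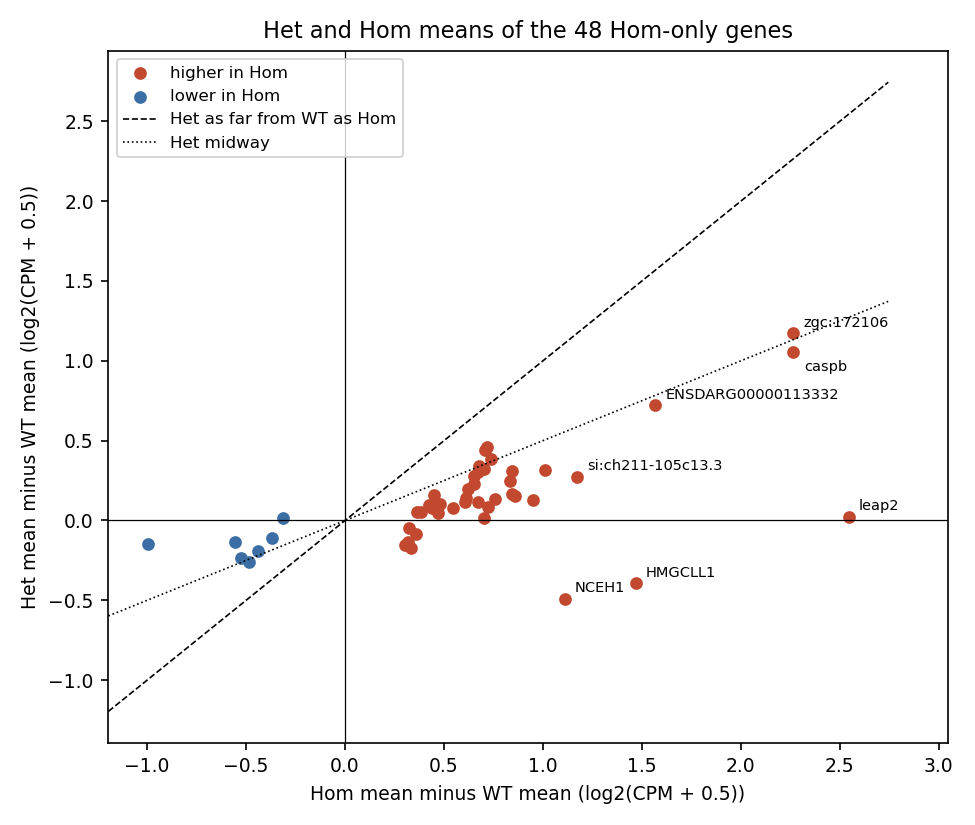
Each point is 1 of the 48 genes, with the Hom mean minus the WT mean on the x axis and the Het mean minus the WT mean on the y axis, both in log2(CPM + 0.5). Points on the dashed line would have Het as far from WT as Hom, and those on the dotted line have Het midway. Most points lie between 0 and the dotted line, while HMGCLL1 and NCEH1 lie below 0 and leap2 at about 0. By requiring WT and Het to overlap, the rule favours a Het mean near that of WT.

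In the edgeR quasi-likelihood fit of all 17082 genes, none reached an FDR under 0.05 for Hom minus Het, and the smallest FDR was 0.540. At an unadjusted p under 0.05 there were 653 genes (3.82%), including 26 of the 48 members. The likelihood-ratio test of edgeR called 9 genes and DESeq2 called 8 at an FDR under 0.05, and none of the 9 was a member. On simulated counts with 200 genes changed 2-fold, the same fit recovered 124 for Hom minus Het. The changed genes were drawn from all those tested, and a 2-fold change is 1 on the log2 scale. Only 7 of the 48 members differed by more than that, so the recovery does not describe smaller changes or genes of lower level. For Hom minus WT, 179 genes were DE (1.05%), by a Bonferroni-adjusted p under 0.01 or an FDR under 0.01 with a logFC beyond 1, and si:ch211-105c13.3 was the 1 member among them. At an FDR under 0.05 the numbers were 3183 genes (18.6%) and 29 members, 23 of the latter higher, where 8.51% of all genes were. For Het minus WT, 4757 genes (27.8%) and 3 members, SYT10, mao and ces2b, had an FDR under 0.05. These comparisons are the ones the rule used, and nothing about the members is read from the counts.

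None of the 48 genes was among the genes found for the 10 pathway lists or the 11 marker lists. Members were 0.281% of all genes tested, so the 332 pathway and 68 marker genes tested would hold few by that share alone. Nothing about the members is read from their absence. The lists were matched by symbol and only in part, with 81 of 128 marker symbols found and 68 marker genes tested, so absence from them is no complete check. No gene of these lists had an FDR under 0.05 for Hom minus Het, and neither had any other gene tested, so this tells nothing about the lists. At an FDR under 0.05, 8.51% of all genes tested were higher and 10.1% lower in Hom than in WT, and 14.1% were higher and 13.8% lower in Het than in WT.

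Of the 4 gamma-secretase genes tested, 1 was higher in Hom than in WT and 2 in Het than in WT, with none lower. Of 16 Notch pathway genes, 1 was higher in Hom and 4 in Het, again with none lower. These are counts too small to set against the shares of all genes. Of 103 nuclear genes of oxidative phosphorylation, 22 were higher in Hom and 75 in Het, with none lower. Of 91 cytosolic ribosomal protein genes, 25 were higher and 1 lower in Hom, and 65 higher and 1 lower in Het. For Hom minus Het the median logFC was -0.34 for the oxidative phosphorylation list and -0.37 for the ribosomal list, against 0.0018 over all genes tested. In edgeR 10 of the 103 and 17 of the 91 genes had an unadjusted p under 0.05 there, where 3.82% of all genes did. The paper reports variable rRNA content among these libraries and questions its own ribosomal result on that ground. It also names the short length of ribosomal protein genes as a possible bias, and no length correction was made here. How far either bears on these counts was not tested. Of 25 circadian clock genes, 4 were higher and 10 lower in Hom, and 4 higher and 9 lower in Het. The tests of Hom and Het against WT share the 4 WT fish.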

How the data were processed

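Brains of 12 female zebrafish (4 WT, 4 Het, 4 Hom) were sequenced after rRNA depletion, 1 library per fish, and groups came from the labels. The authors trimmed reads with cutadapt 1.14, aligned them to GRCz11 with STAR 2.7.0d and counted strictly exonic fragments of Ensembl gene models on the reverse strand with featureCounts (Subread 1.5.2), at a mapping quality of at least 10. The deposited values are raw counts. The exonic length of each gene is another deposited column, as the authors' counting program wrote it. Their later correction for GC content and length is not in these counts and was not repeated. The deposited identifiers were paired with symbols in a reference table (90.4% of 32057) and printed in its spelling.

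CPM was computed over counts outside Chr MT, with a pseudocount of 0.5, for genes with CPM above 1.5 in at least 4 fish and at least 300 bp. Counts of these 17082 genes were fitted with edgeR 4.0.16 under R 4.3.3 with limma 3.58.1 (TMM, quasi-likelihood test, Benjamini-Hochberg FDR), with genotype as the only factor, tested first on simulated counts. Alternatives were DESeq2 1.42.0, the likelihood-ratio test, other scalings, filters, pseudocounts and thresholds, and leaving out each fish. Letting WT and Het lie apart was added after the data were seen. The members and lists were chosen with earlier results of these data known. Genes named are the 15 largest differences in each direction (all 7 lower), the 10 widest margins, those within 10 Mb of psen2 and those at the 0.3 limit. The other members were named after their values were seen. A gene that the plan also named is not reported here. Depth per fish was 11878943 to 17026801 counts in all and 8834596 to 11938865 outside Chr MT, so that a CPM of 1 over the latter rests on about 10 counts. Each library is 1 fish, and the p-values measure the spread between siblings of 1 family.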

Additional observations from a re-analysis of the deposited data

Results flagged for a closer look

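Among the 48 members in 3 genotypes, 144 groups of 4 fish, a single fish lay far from the other 3 in 10 groups (6.94%). Chance alone sets such a fish apart in about 1 in 20 groups. In Hom, ESR1 stood at 13.2 CPM in Hom 78 against 6.43 to 6.70 in the other 3, and HMGCLL1 at 8.92 CPM in Hom 78 against 4.22 to 4.66. POLR2C stood at 14.8 CPM in Hom 78 against 19.9 to 20.8. MMP9 stood at 4.97 CPM in Hom 82 against 3.64 to 3.79, and mhc1lda at 3.11 CPM in Hom 85 against 2.04 to 2.07. In Het, ANO6 stood at 4.56 CPM in Het 84 against 7.23 to 7.69, and ENSDARG00000113332 at 1.42 CPM in Het 84 against 4.35 to 4.72. In WT, bin2b stood at 4.04 CPM in WT 88 against 6.45 to 6.85, si:dkey-248g21.1 at 1.26 CPM in WT 86 against 2.94 to 3.33, and zgc:172106 at 0.866 CPM in WT 88 against 0 in the other 3.

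Counts on Chr MT were left out of the rule. They made up 39.1% of all counts on average in Het and 39.1% in Hom, above the highest WT fish at 32.5%. The difference between Hom and Het was 0.0285 percentage points, with an exact permutation p of 0.971.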

How the results depend on the processing

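The 48 genes became 26 with CPM over all counts, 74 without a filter on low values and 28 with a difference of at least 0.5. The number was 47 with TMM and 49 with DESeq2 size factors, although 16 and 20 of those genes were not among the 48. It was 35 with at least 10 counts in every fish and 59 when WT and Het were allowed to lie apart. Leaving out 1 fish gave 50 to 152 genes, a smaller group being easier to separate. It was above 1.5 times 48 without Het 80 (84 genes), Het 81 (87), Het 89 (107), Hom 78 (122), Hom 82 (100), Hom 83 (124) and Hom 85 (152). Genes DE for Hom minus Het numbered 0 in the quasi-likelihood fit, 9 with the likelihood-ratio test and 8 with DESeq2, and 0 with each fish left out in turn. For Hom minus WT the 179 became 469 and 538, and 11 (without Hom 85) to 429 (without WT 88). For Het minus WT the 505 became 881 and 988, and 137 (without WT 79) to 823 (without WT 88). The cause was not tested.

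Of 416 values of the 26 named members under 16 settings, none reversed and 8 moved by more than the spread within genotypes, all with another pseudocount and at low counts. Leaving out a fish or changing the pseudocount cannot reverse a gene whose Hom fish all lie beyond the others. The rule also required a difference of at least 0.3, so the lack of reversals is a description only. No paired analysis was possible because no fish number is shared between genotypes. Correction for GC content was not run. Genes under about 3 CPM rest on few counts in each fish, so their fold changes are imprecise.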
